A study of Mus musculus with 8 samples.

Results

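The genes of the primary cilium and of the hedgehog pathway that it serves were followed in 3T3-L1 preadipocytes, mouse fibroblasts of an established line that can become fat cells. They are 42 named genes, 33 of the cilium and 9 of hedgehog signalling, among the 23699 gene entries of each library. They were taken by symbol, and each occurred once. RNA sequencing was done on 8 libraries, 4 with Fto siRNA and 4 with control siRNA. The Fto siRNA cells had received a pool of 3 siRNAs against Fto, the gene of an RNA and DNA demethylase, and the control cells a pool of 3 siRNAs with no target. Both groups were 3T3-L1 preadipocytes transfected with 40 nM siRNA for 24 hours before confluence and studied 2 days after it, with no induction of differentiation and no other agent named. A knockdown with a pool in 1 cell line cannot tell apart what each siRNA does. Nothing in the labels tells whether each replicate was its own culture; the p-values therefore measure only the spread among these libraries, and that spread may be technical.

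The primary cilium is a single, non-motile projection of the cell surface built on a centriole. Cargo is carried along it by intraflagellar transport (IFT), in which the IFT-B complex and kinesin motors move outward and the IFT-A complex and dynein move inward. The transition zone at its base controls entry, and the BBSome, a coat of Bardet-Biedl syndrome proteins, takes membrane proteins out. In the hedgehog pathway the receptor Ptch1 holds back Smo. Once a ligand binds Ptch1, Smo enters the cilium and the Gli factors are freed from Sufu and turned into activators. In preadipocytes, hedgehog signalling is known to hold back fat cell formation, and loss of BBS proteins causes obesity in mice and people.

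Many promoters of cilium genes are bound by RFX factors at a motif named the X-box, so the promoters of the cilium and hedgehog genes were read for it. RefSeq windows of 250 bases before to 50 bases after the start (GRCm38.p6) were matched for 36 of the 42 genes. No window was at hand for Ift80, Ift81, Ift122, Tmem67, Boc and Gli1, so their promoters were not read. On either strand, the X-box spelling (GTTGCC, any 2 bases, GG, any base, AAC) stood in the windows of 2 of the 36 genes (5.56%), Mks1 and Bbs7, against 0.355% of 27025 genes with a window. The looser spelling (GTTGCC, any 3 bases, G, any 2 bases, AC), which takes in the first, stood in 5 of 36 (13.9%) against 1.21% of all, adding B9d2, Bbs1 and Ift57. The first 6 bases GTTGCC alone, part of both, stood in 13 of 36 (36.1%) against 14.1%. The Gli motif GACCACCCA stood in none of the 36 windows and in 0.289% of all. The windows of Mks1 at chr11:87852965-87853264 (plus strand) and of Bbs7 at chr3:36613340-36613639 (minus strand) are shown because they hold the full spelling, marked in capitals, and because the 2 genes differed in their call.
Mks1: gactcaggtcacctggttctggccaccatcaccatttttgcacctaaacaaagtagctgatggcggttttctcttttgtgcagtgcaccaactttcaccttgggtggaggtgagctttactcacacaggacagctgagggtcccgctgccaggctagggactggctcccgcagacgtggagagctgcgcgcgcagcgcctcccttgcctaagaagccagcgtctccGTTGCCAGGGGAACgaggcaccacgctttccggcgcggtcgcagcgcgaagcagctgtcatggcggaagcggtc
Bbs7: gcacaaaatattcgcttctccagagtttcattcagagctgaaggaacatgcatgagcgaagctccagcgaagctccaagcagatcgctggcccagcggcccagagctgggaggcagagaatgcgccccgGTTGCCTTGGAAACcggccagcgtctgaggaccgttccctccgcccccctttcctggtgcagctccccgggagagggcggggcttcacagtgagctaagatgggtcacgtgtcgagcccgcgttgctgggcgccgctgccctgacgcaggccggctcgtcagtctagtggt
Counted from the start as 1, with no 0, the match begins at -24 in Mks1 and at -121 in Bbs7. The letters of the other 3 matches to the looser spelling are shown beside these.
Mks1 match: GTTGCCAGGGGAAC
Bbs7 match: GTTGCCTTGGAAAC
B9d2 match: GTTGCCCCAGCAAC
Bbs1 match: GTTGCCAAGGCGAC
Ift57 match: GTTGCCGTGGTGAC
A match is a description of the letters and does not show that a factor binds there. The spellings were chosen after matches were seen, so their shares among these genes are no separate result.

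Levels are FPKM, fragments scaled to transcript length and to the mapped fragments of the library, which can be compared between genes. Each library listed 11351 to 11397 entries at 1 FPKM or more, and by the width of the Cufflinks intervals the depth ran between 0.88 and 1.13 of the mean library. Fto was 78.1% lower in the Fto siRNA libraries, at 12.1 ± 1.29 FPKM against 55.3 ± 0.647 FPKM in the controls (SD, n = 4 each; log2 fold change -2.15, limma adjusted p = 7.3e-08). Fibroblast and preadipocyte markers summed to 9106 to 10026 FPKM with Fto siRNA and 8459 to 8889 FPKM in the controls. All 9 lay above 1 FPKM. Of these, 4 were higher (44.4%), 2 lower (22.2%) and 3 not called, against 6.97% and 12.3% of all tested genes. Among them Ly6a was 54.9% higher and Pdgfra 13.6% lower with Fto siRNA, so the sums do not show that each marker kept its level. Mature adipocyte markers summed to 54.2 to 65.9 FPKM with Fto siRNA and 51.6 to 83.3 FPKM in the controls, most of it Fabp4, and 0 of the 3 tested were called by limma or at an unadjusted p under 0.05. Adipoq was highest in control replicate 4, at 9.19 FPKM. The 9 immune, endothelial and muscle markers summed to 3.29 to 3.58 FPKM with Fto siRNA and 2.89 to 3.92 FPKM in the controls. The muscle marker Des and the immune marker Cd68 were the 2 above 1 FPKM, with means of 1.86 and 1.09 FPKM over the 8 libraries. Neither was called, and Myod1 and Emr1 were listed at 0 in every library. Control replicate 3 stood furthest from its group, with a median difference of 1.27 to 1.52 standard errors per gene from the other controls, against 0.897 to 0.981 among those.

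The 42 genes spanned a wide range of levels, and the hedgehog co-receptor Gas1 stood at its top. The co-receptor Gas1 had the highest mean over the 8 libraries, 281 FPKM, followed by Smo at 72.8, the co-receptor Cdon at 67.2, the GTPase gene Arl3 at 60.9 and the IFT-B gene Ift20 at 48.9 FPKM. Gas1 lay far above the next gene in every library, while neighbours further down the order often overlapped. The lowest were Bbs1 at 3.05, the transition zone gene Cep290 at 3.01 and Gli1 at 0.912 FPKM. Gli1 is itself a target of hedgehog signalling. It was the only one of the 42 below the filter of a mean of 1 FPKM, so 41 were tested. The distance from the value to the end of its Cufflinks interval was 1.4 to 1.62% of the value for Gas1 and 21.2 to 29.5% for Gli1.

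Cilium genes were lower in most cases, by small amounts, while hedgehog genes were spread to both sides. Of the 41 genes tested, 7 fell, 1 rose and 33 did not pass the adjusted threshold of 0.05, so 8 were called, where 19.3% of all tested genes were. The 7 that fell are 17.1% of the 41, against 12.3% of the 11398 genes tested, and the 1 that rose is 2.44%, against 6.97%, so the share of falls was not far from that of all genes. All 7 falls were among the 33 cilium genes (21.2%), and the rise was that of Gli2 among 8 hedgehog genes. Among the cilium genes limma called 0 higher, and 0 were higher at an unadjusted p under 0.05. The groups did not overlap for 9 of the 41 on the lower side and 1 on the higher side, where the share over all genes was 15.1% and 9.08%. The log2 fold change was below 0 for 28 of 33 cilium genes (84.8%) and 3 of 8 hedgehog genes (37.5%), against 55.3% of all tested genes. The median log2 fold change was -0.10 over the cilium genes, 0.02 over the hedgehog genes and -0.02 over all tested genes. With median-ratio scaling or quantile normalization, 26 of 33 cilium genes lay below 0, against 49.3% and 48.2% of all genes, and risen genes made up 47.1% and 47.4% of all calls, against 36.2% with the deposited scaling. In RNA from whole cultures, fewer ciliated cells and less RNA per cell cannot be told apart.

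**Figure D1:**
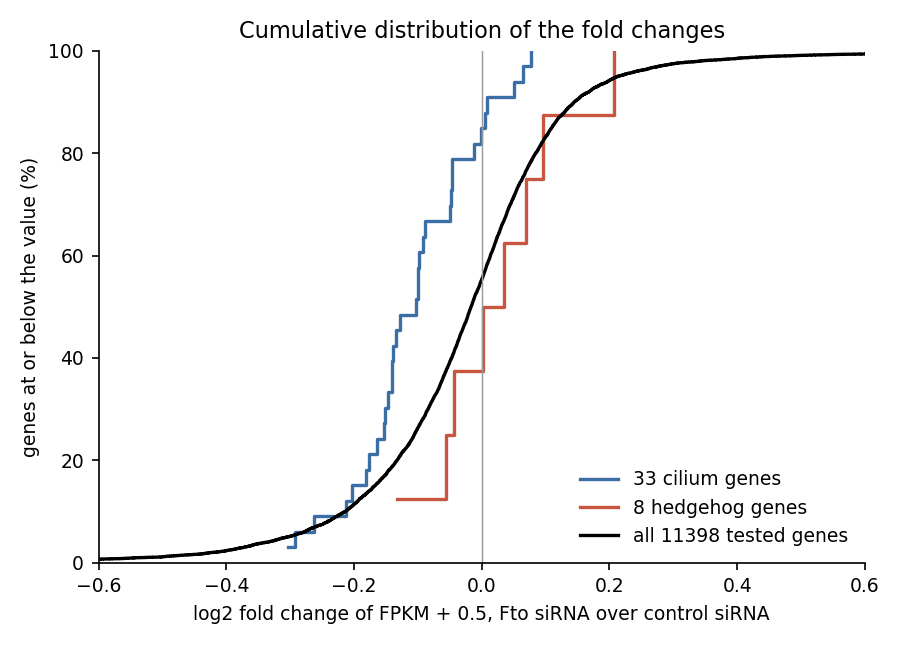
The x axis is the log2 fold change of FPKM + 0.5 (Fto siRNA over control siRNA) and the y axis the percentage of genes at or below it, for 33 cilium genes, 8 hedgehog genes and all 11398 tested genes. The line of the cilium genes lies left of that of all genes over most of its course, and 84.8% of it lies below 0, against 55.3% for all genes.

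The number of falls depended on single libraries. Without control replicate 2 or without Fto siRNA replicate 4, 4 of 41 fell (9.76%), against 8.7% and 9.91% of all genes in those fits. Without control replicate 3, the library that stood apart, 10 of 41 fell (24.4%), against 12.6% of all genes, with B9d1, Ift140 and Ift172 added to the 7. In every one of these fits the 1 gene that rose was Gli2.

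The clearest falls were those of Ift80 and Ift81, both of the IFT-B complex. Ift81, which together with Ift74 binds the tubulin cargo of the cilium, had 15.76, 14.97, 15.04 and 16.03 FPKM with Fto siRNA and 18.9, 18.8, 18.2 and 18.6 FPKM in the controls. The highest Fto siRNA library lay below the lowest control. Its mean was 15.5 ± 0.527 FPKM against 18.6 ± 0.338 FPKM (SD, n = 4 each), 17.1% lower, with a log2 fold change of -0.26 (SE 0.037, limma adjusted p = 0.0011). The locus is mm9 chr5:123000213-123064527. Ift80, whose human counterpart is mutated in a skeletal ciliopathy, had 14.0, 14.4, 14.7 and 14.6 FPKM with Fto siRNA and 18.0, 18.8, 17.9 and 16.5 FPKM in the controls. Here too the groups were apart, and control replicate 4 was the control nearest to the Fto siRNA libraries. The log2 fold change was -0.29 (SE 0.043, adjusted p = 0.0015), and the locus is mm9 chr3:68696421-68808492. Both genes passed in each fit that left out 1 library, with adjusted p of 0.0014 to 0.0056 for Ift81 and 0.0015 to 0.0068 for Ift80.

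Ift52 and Ift74, further subunits of the IFT-B core, also fell. Ift52 had 27.6, 28.1, 28.0 and 27.4 FPKM with Fto siRNA and 31.3, 30.8, 31.6 and 30.2 FPKM in the controls, a narrow spread in both groups with no overlap. Its log2 fold change was -0.15 (SE 0.031, limma adjusted p = 0.0072; mm9 chr2:162843208-162871871). Ift74, the partner of Ift81, had 19.2, 21.5, 19.5 and 19.7 FPKM with Fto siRNA and 23.6, 22.4, 23.0 and 21.5 FPKM in the controls. Its groups came close to touching, at Fto siRNA replicate 2 and control replicate 4. The log2 fold change was -0.18 (SE 0.045, adjusted p = 0.022; mm9 chr4:94281211-94359924). Ift74 was not called in 5 of the 8 fits without 1 library, with adjusted p of 0.0501 to 0.0601 in those leaving out replicate 1 or 2 of the controls or replicate 1, 3 or 4 of Fto siRNA. Its locus overlaps those of Lrrc19 and Mir872, and how reads were split among overlapping genes is not known, here or for the overlaps given further on.

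Of the 10 IFT-B genes among the 42, 4 fell (one of them Ift74), 0 rose and 6 did not pass. Of all tested genes, 12.3% fell and 6.97% rose. At an unadjusted p under 0.05, 0 of the 10 IFT-B genes were higher. Their log2 fold changes ran from -0.29 for Ift80 to -0.01 for Ift27, with a median of -0.14, and all 10 lay below 0, as did 55.3% of all tested genes. Ift27, a small GTPase that helps the BBSome leave the cilium, came out at 0.01 and 0.00 with the other scalings. Ift20, which also works at the Golgi, had 46.4 ± 3.89 FPKM with Fto siRNA and 51.4 ± 4.53 FPKM in the controls (SD, n = 4 each; log2 fold change -0.15, limma adjusted p = 0.19). Ift172 was at -0.13 on the log2 scale (adjusted p = 0.12) and Ift88, whose loss abolishes cilia in mice, -0.10 (adjusted p = 0.36). For Ift88 the 95% interval was -0.25 to 0.05, so a fall as large as that of Ift52 lies within it. Ift57 and Ift46 were at -0.09 and -0.05.

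**Figure D2:**
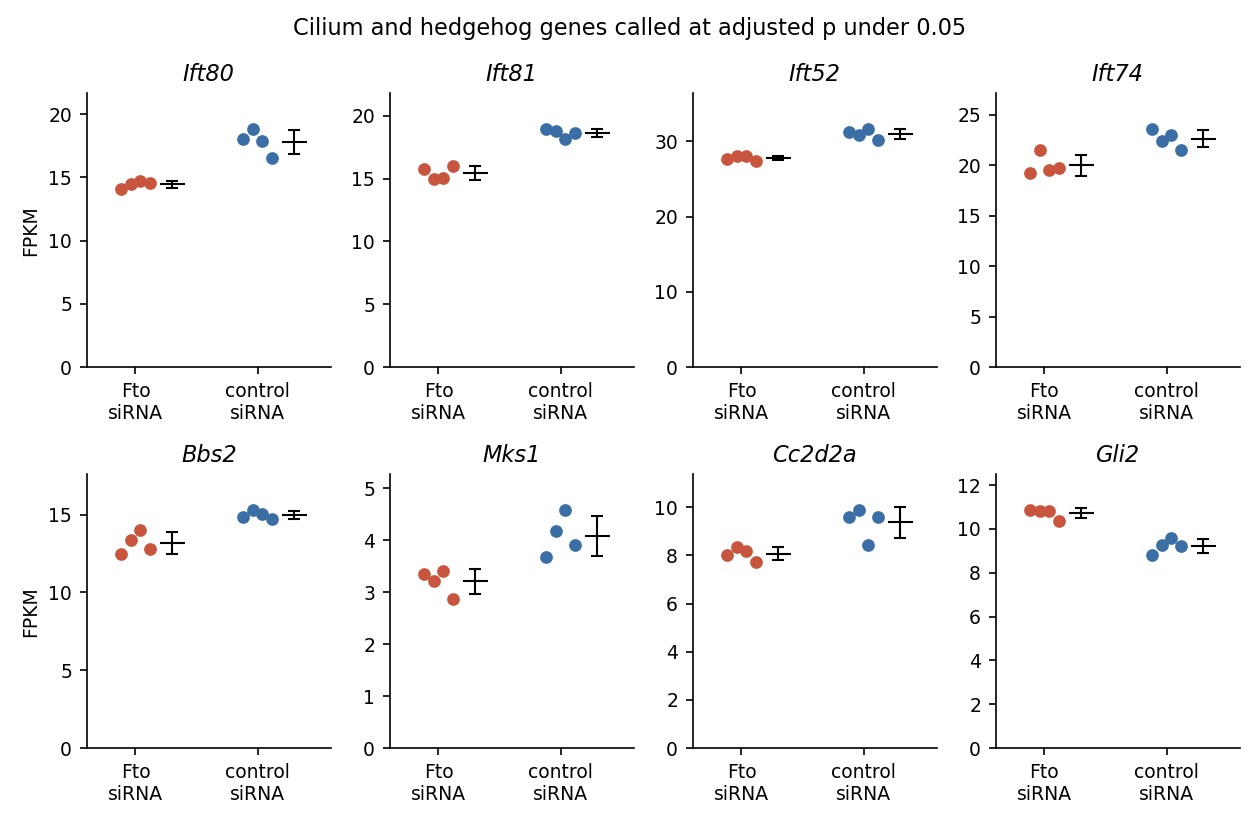
FPKM of the 8 genes that passed the adjusted threshold in each library (points), with the mean and SD of each group (bars, n = 4), Fto siRNA left of control siRNA, on axes that start at 0. The 7 cilium genes are lower with Fto siRNA and Gli2 is higher, with no overlap between groups in any panel.

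The IFT-A and kinesin genes among the 42, Tulp3 included, did not pass. Ift140, an IFT-A subunit, had 8.82, 9.03, 8.73 and 8.72 FPKM with Fto siRNA and 10.0, 9.44, 9.2 and 10.4 FPKM in the controls. Its groups did not overlap, but it missed the threshold (log2 fold change -0.14, limma adjusted p = 0.064). The SD was 0.143 FPKM with Fto siRNA and 0.565 FPKM in the controls, and its locus overlaps that of Tmem204. Ift122, of the same complex, was at -0.10 (adjusted p = 0.13). Tulp3, which hands membrane receptors to IFT-A, had 37.8 ± 0.689 FPKM with Fto siRNA and 36.4 ± 0.519 FPKM in the controls (SD, n = 4 each; 0.05, adjusted p = 0.27). Kif3a, a subunit of the motor that carries IFT outward, and Kif7, the kinesin of the cilium tip that acts on Gli factors, were at 0.06 (adjusted p = 0.34) and 0.08 (adjusted p = 0.52). The locus of Kif7 overlaps that of 5730590G19Rik.

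Among BBSome genes, Bbs2 fell. It had 12.5, 13.4, 14.0 and 12.8 FPKM with Fto siRNA and 14.9, 15.3, 15.1 and 14.7 FPKM in the controls. The 4 controls lay close together and above each Fto siRNA library. Its mean was 13.2 ± 0.69 FPKM against 14.98 ± 0.246 FPKM (SD, n = 4 each; log2 fold change -0.18, SE 0.043, limma adjusted p = 0.015; mm9 chr8:96591854-96622711). The other 7 of 8 genes of the BBSome, its chaperonin and Arl6 did not pass. The share that fell, 1 of 8 (12.5%), was that of all tested genes (12.3%). Of the 8, 7 lay below 0 (median -0.14), as did 55.3% of all tested genes. Arl6, the GTPase that brings the BBSome to membranes, had 18.7 ± 1.12 FPKM with Fto siRNA and 20.9 ± 1.12 FPKM in the controls (-0.15, adjusted p = 0.068). Its locus overlaps 4930547E14Rik. Bbs9 and Bbs5 were at -0.14 each, and Bbs12, of the chaperonin that assembles the BBSome, at -0.16 (adjusted p = 0.09, 0.25 and 0.16). Bbs7, whose promoter is shown above, had 10.2, 11.9, 11.9 and 10.9 FPKM with Fto siRNA and 11.8, 11.7, 11.6 and 11.5 FPKM in the controls. The controls agreed closely and the Fto siRNA libraries lay on both sides of them (-0.05, 95% interval -0.17 to 0.07). Bbs1 and Bbs4, at 0.00 each, had intervals of -0.14 to 0.15 and -0.13 to 0.13.

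Of the other small GTPases, Arl3, which releases lipid-anchored cargo inside the cilium, had 58.8 ± 2.39 FPKM with Fto siRNA and 63.1 ± 4.82 FPKM in the controls (SD, n = 4 each; log2 fold change -0.10, limma adjusted p = 0.23). Arl13b, which activates Arl3, had 19.9 ± 0.46 FPKM with Fto siRNA and 20.6 ± 0.353 FPKM in the controls (-0.05, adjusted p = 0.37). Neither passed, and the locus of Arl13b overlaps that of Stx19.

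At the transition zone, Mks1 and Cc2d2a fell, and the gene next to Fto did not pass. Mks1, a B9-domain protein of the transition zone, had 3.35, 3.22, 3.41 and 2.88 FPKM with Fto siRNA and 3.68, 4.18, 4.58 and 3.91 FPKM in the controls. It is a low gene with 134 to 218 fragments a library, and its groups did not overlap. It was 21.4% lower, with a log2 fold change of -0.30 (SE 0.077, limma adjusted p = 0.021; mm9 chr11:87666727-87677181). Mks1 lost its call when Fto siRNA replicate 4 was left out (adjusted p = 0.056), and again with control replicate 2 left out (0.059). Cc2d2a, a C2-domain protein of the same zone, had 8.02, 8.35, 8.18 and 7.71 FPKM with Fto siRNA and 9.58, 9.88, 8.43 and 9.6 FPKM in the controls. Control replicate 3 was almost level with the Fto siRNA libraries. The log2 fold change was -0.20 (SE 0.054, adjusted p = 0.026; mm9 chr5:44053618-44132209). Cc2d2a was called only in the fits without control replicate 3 or Fto siRNA replicate 2 among the 8 that left out 1 library (adjusted p 0.0525 to 0.0819 in the other 6), and not with median-ratio scaling (0.051) or without a filter on low values (0.052).

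Of the 8 genes of the transition zone and centriole, 2 fell, 0 rose (0 also at an unadjusted p under 0.05) and 6 did not pass, where 12.3% of all tested genes fell and 6.97% rose. Their median log2 fold change was -0.12. B9d1, a partner of Mks1, had 17.0, 17.4, 15.1 and 14.3 FPKM with Fto siRNA and 17.5, 18.9, 17.2 and 20.5 FPKM in the controls. Its groups overlapped by a small margin (-0.21, limma adjusted p = 0.064). B9d2, the third protein of that family, was at -0.09 (adjusted p = 0.47). Cep290, which links the microtubules of the zone to the membrane, had a log2 fold change of -0.13 and Ofd1, a centriole protein, of -0.10 (adjusted p = 0.36 and 0.25), and the locus of Cep290 overlaps 4930430F08Rik. Tmem67, a membrane protein of the zone, was at 0.01. Rpgrip1l, a scaffold of the transition zone, lies at mm9 chr8:93740929-93837121 and borders Fto, which begins at 93837424. It had 7.60, 7.65, 8.63 and 7.41 FPKM with Fto siRNA and 8.43, 7.85, 7.60 and 8.51 FPKM in the controls. The groups overlapped throughout. The 95% interval of its log2 fold change was -0.18 to 0.08, while Fto, its neighbour, was at -2.15.

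**Figure D3:**
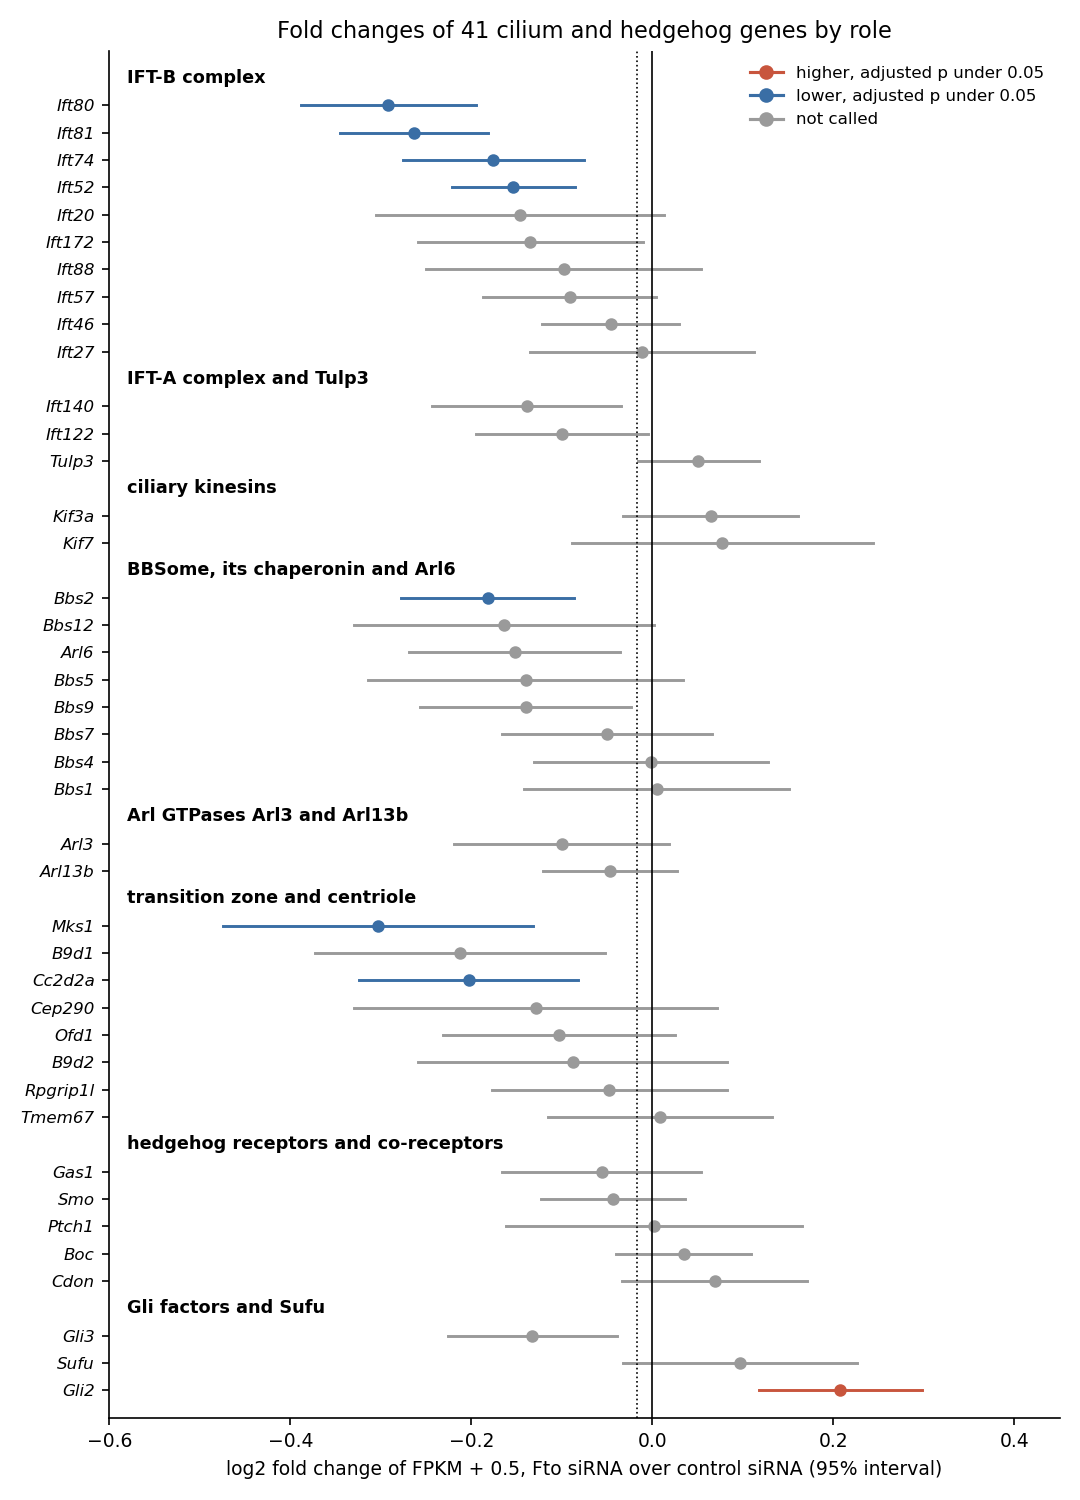
Log2 fold change (Fto siRNA over control siRNA) of the 41 tested genes with its 95% interval, grouped by role, with the solid line at 0 and the dotted line at the median of all tested genes (-0.02). All 10 IFT-B genes lie left of 0, from -0.29 to -0.01, and the hedgehog receptors lie on both sides of 0.

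Hedgehog receptors and co-receptors did not pass the test, and limma called 0 of 5 higher and 0 lower, as did an unadjusted p under 0.05. With 6.97% of all tested genes risen and 12.3% fallen, 5 genes are too few for 0 calls to set them apart. Ptch1, the receptor and also a target gene of the pathway, had 10.4, 8.87, 9.57 and 9.02 FPKM with Fto siRNA and 10.4, 9.38, 8.20 and 9.91 FPKM in the controls. The groups overlapped, with control replicate 3 below every Fto siRNA library, and had means of 9.46 ± 0.675 and 9.46 ± 0.933 FPKM (SD, n = 4 each; log2 fold change 0.00, 95% interval -0.16 to 0.16, adjusted p = 0.99). Smo had 74.1, 70.1, 73.2 and 69.6 FPKM with Fto siRNA and 70.9, 76.2, 74.8 and 73.9 FPKM in the controls. It is deeply covered, with at least 5182 fragments a library, and its interval was narrow (-0.04, 95% interval -0.12 to 0.04). Gas1, Cdon and Boc bind ligand beside Ptch1. Their log2 fold changes were -0.06, 0.07 and 0.03, with adjusted p of 0.48, 0.34 and 0.52, and the locus of Boc overlaps that of Mir3081.

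Gli2 was the only 1 of the 42 genes that rose. Gli2, the main activator among the Gli factors, had 10.9, 10.8, 10.8 and 10.4 FPKM with Fto siRNA and 8.81, 9.28, 9.58 and 9.20 FPKM in the controls. Each Fto siRNA library lay above each control. Its mean was 10.7 ± 0.239 FPKM against 9.22 ± 0.317 FPKM (SD, n = 4 each), 16.3% higher, with a log2 fold change of 0.21 (SE 0.041, limma adjusted p = 0.0066; mm9 chr1:120730638-120950196). Gli3, which acts mainly as a repressor, had 8.17, 8.64, 8.61 and 7.95 FPKM with Fto siRNA and 9.23, 9.23, 9.24 and 9.05 FPKM in the controls. The controls lay within a narrow band above the Fto siRNA libraries, but the gene missed the threshold (log2 fold change -0.13, SE 0.042, adjusted p = 0.051). Over the 15 alternatives the adjusted p of Gli3 ran from 0.04997 with a pseudocount of 0.1, the only setting that called it, to 0.134 with quantile normalization. Sufu, which holds Gli proteins back, had 27.2 ± 0.944 FPKM with Fto siRNA and 25.5 ± 2.17 FPKM in the controls (0.10, adjusted p = 0.28).

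Gli1, the usual readout of hedgehog signalling, was near the limit of what the depth could show. It had 0.912, 1.07, 0.910 and 1.08 FPKM with Fto siRNA and 0.640, 1.07, 0.771 and 0.844 FPKM in the controls. Control replicate 2 reached the level of the Fto siRNA libraries and the other 3 controls lay below them. The means were 0.993 ± 0.0955 and 0.830 ± 0.178 FPKM (SD, n = 4 each), from 46 to 89 fragments a library. Permuting the group labels of the FPKM gave an exact two-sided p of 0.143, where 0.0286 is the smallest that 4 against 4 libraries allow. Without the filter the log2 fold change was 0.17 (limma adjusted p = 0.36). The Gli1 locus overlaps that of Arhgap9.

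**Figure D4:**
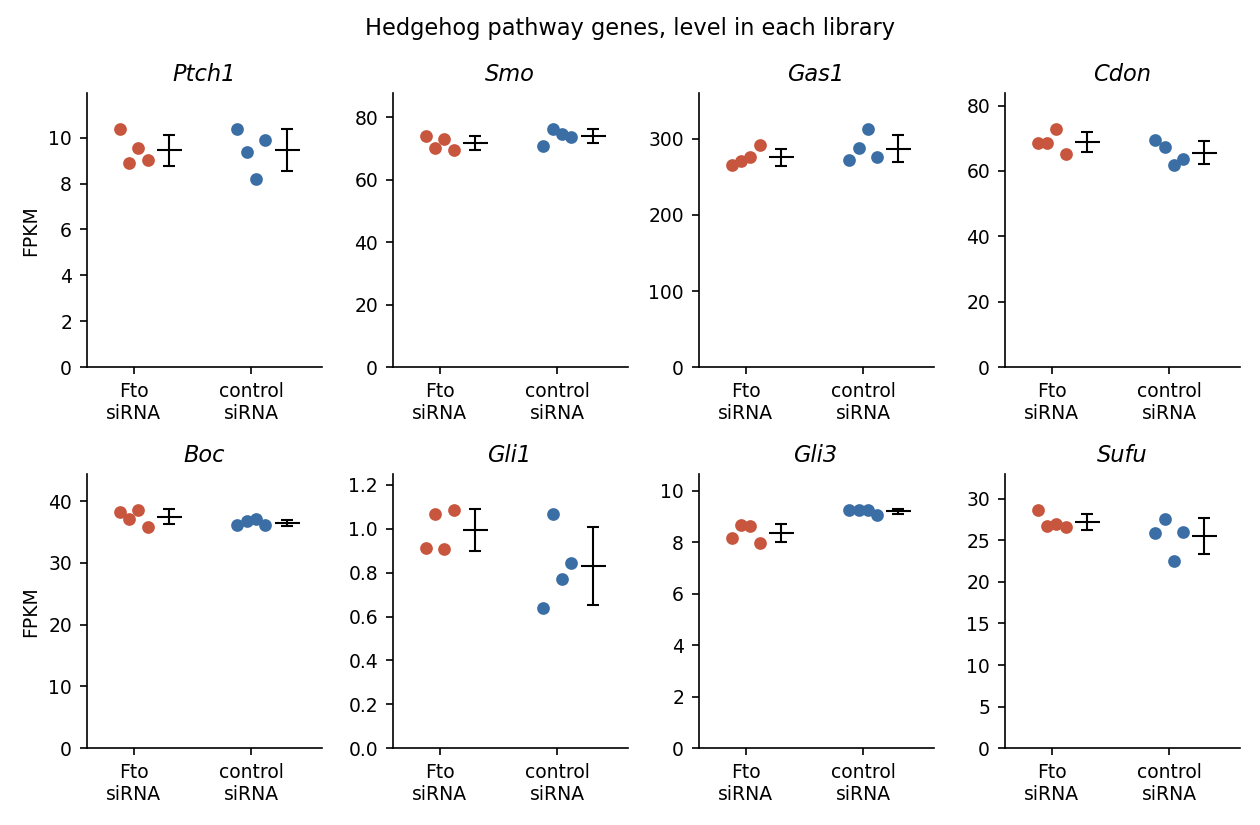
FPKM of the 8 hedgehog genes other than Gli2 in each library (points), with the mean and SD of each group (bars, n = 4), Fto siRNA left of control siRNA, on axes that start at 0. The groups overlap in every panel but that of Gli3, where the controls lie between 9.05 and 9.24 FPKM and the Fto siRNA libraries between 7.95 and 8.64 FPKM.

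Cilium genes outside the 42, listed by role, also fell in part, and limma called 0 of them higher. Of 21 tested genes of the remaining IFT subunits and cilium motors, 5 fell and 0 rose (0 also at an unadjusted p under 0.05). Dync2li1, a chain of the dynein that moves IFT inward, had 34.4 ± 0.591 FPKM with Fto siRNA and 39.6 ± 1.49 FPKM in the controls (SD, n = 4 each; log2 fold change -0.20, limma adjusted p = 0.0038). The IFT-B gene Ttc26, the IFT-A gene Wdr19 and Kifap3, the adaptor of the kinesin of Kif3a, fell by 0.22, 0.26 and 0.20 on the log2 scale. Of 36 tested genes of the remaining BBS, transition zone and nephronophthisis proteins, 7 fell and 0 rose (0 also at an unadjusted p under 0.05). The BBSome gene Ttc8 had 17.5 ± 0.381 FPKM with Fto siRNA and 22.2 ± 1.96 FPKM in the controls (SD, n = 4 each; log2 fold change -0.33, limma adjusted p = 0.0035). Ahi1, of the transition zone, fell by 0.36 on the log2 scale and Arl2bp, which binds Arl3, by 0.26. Over both lists 12 of 57 fell (21.1%) and 0 rose, against 12.3% and 6.97% of all tested genes, and the median was -0.09.

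Genes of the RFX family and of cilium disassembly did not pass. Of 5 tested RFX factors (Rfx1, Rfx2, Rfx3, Rfx5 and Rfx7) limma called 0 higher and 0 lower, as did an unadjusted p under 0.05. Rfx3 had 2.55 ± 0.336 FPKM with Fto siRNA and 2.52 ± 0.12 FPKM in the controls (SD, n = 4 each; log2 fold change 0.01, limma adjusted p = 0.97). Of 7 genes of cilium disassembly, among them Aurka and Hdac6, limma likewise called 0 in either direction, with 0 at an unadjusted p under 0.05. With 12.3% of all tested genes fallen and 6.97% risen, 5 or 7 genes are too few for 0 calls to set either list apart. Markers of motile ciliated epithelium were near 0, except for Ccdc39. Rsph1 and the epithelial marker Epcam were at 0 in every library, and Foxj1 was at 0.157 FPKM or less. Ccdc39, a ruler protein of motile axonemes, had 2.80 ± 0.219 FPKM with Fto siRNA and 3.74 ± 0.228 FPKM in the controls (-0.36, adjusted p = 0.0061), and its locus overlaps that of Ttc14.

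Other hedgehog genes showed no shared direction. The ligand Shh was listed at 0 in every library, Dhh at 0 in all but control replicate 1, and Ihh at 0.111 FPKM or less. Of 21 tested pathway genes outside the 42, 1 rose and 1 fell (4.76% each), with a median log2 fold change of -0.01. Over all tested genes 6.97% rose and 12.3% fell. Evc, part of a complex at the cilium base that passes on the Smo signal, had 21.8 ± 0.639 FPKM with Fto siRNA and 24.9 ± 1.01 FPKM in the controls (SD, n = 4 each; -0.19, limma adjusted p = 0.0093). Its partner Evc2 did not pass, at 23.2 ± 1.11 FPKM with Fto siRNA and 23.3 ± 0.534 FPKM in the controls (-0.01, adjusted p = 0.92). Fbxw11, a ubiquitin ligase subunit that acts on Gli proteins, rose by 0.12. Gpr161, a ciliary receptor that restrains the pathway, was at -0.06 (adjusted p = 0.81). Of 6 tested target genes Ccnd1 rose by 0.17 and Snai2 fell by 0.21 on the log2 scale, which is 1 of 6 (16.7%) each way. The target Hhip lay below the filter, at 0.105 ± 0.0145 FPKM with Fto siRNA and 0.131 ± 0.0318 FPKM in the controls.

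The 3′ UTRs of the 42 genes were read for 2 words that are common in the fallen genes as a whole. The words GACCTTA and ACCTTAA, which overlap by 6 bases, were chosen in an earlier look at these data as those whose carriers were lowest, so their share among all fallen genes is no separate result. In GENCODE M21 transcripts (GRCm38, annotated 3′ UTRs of at least 50 bases) 345 of 1235 fallen genes (27.9%) held one of them, against 9.04% of the risen genes and 12.2% of the others. Of the 7 cilium genes that fell, 0 did, and 7 genes are too few to tell them apart from the fallen genes as a whole. Of the 42 genes, 3 held a word (7.14%), against 13.9% of the 9813 tested genes with such a UTR. These 3 were Smo, Sufu and Bbs1, and none of them was called. Their sites are shown with 10 bases on each side and the word in capitals.
Smo, GRCm38 chr6:29760915-29760921, plus strand: cctggttagcACCTTAAaactgcagtg
Sufu, GRCm38 chr19:46487183-46487189, plus strand: tctggcaggaACCTTAAaagagctcct
Bbs1, GRCm38 chr19:4888828-4888834, minus strand: aggaaactgaACCTTAAggatgagaag
The sequences of the siRNAs were not used here.

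The spread between replicates was of the same size for these genes as for all genes. The median coefficient of variation over the 41 genes was 5.24% with Fto siRNA and 4.54% in the controls, against 5.07% and 5.49% over all tested genes. Control replicate 3 was the lowest control for 14 and the highest for 15 of the 42 genes, and control replicate 2 was the lowest for 1 and the highest for 14. Among the Fto siRNA libraries, replicate 4 was the lowest for 17 genes and replicate 3 the highest for 16.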

How the data were processed

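RNA of 8 3T3-L1 libraries, 4 per group, was measured by sequencing. Per the submitters' processing notes the authors used TopHat2 2.0.11 and Cufflinks 2.2.1 on mm9. Annotation and strand handling: not given in the sources used here. The deposited FPKM came per library with an interval and a status, per the file headers, and all 42 genes had status OK in every library. Taking the interval as 2 SD of a Poisson count gave the fragments behind a value, whole within 0.02 for 72.9 to 74.4% of low values; such intervals cover counting error only. The deposited locus starts count from 0, so 1 was added.

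From the FPKM, log2(FPKM + 0.5) was fitted for 11398 entries with a mean of at least 1 FPKM with limma 3.58.1 (R 4.3.3, trend in the prior variance, two-sided, Benjamini-Hochberg adjustment over all entries, threshold 0.05). Fold changes are on that scale, which understates those of low genes. No count test was run, since FPKM are not counts. The fit was tested on simulated data. Alternatives were pseudocounts of 0.1 and 1, no filter, a filter of 5 FPKM, median-ratio scaling, quantile normalization, a replicate block and leaving out each library. The genes and lists were chosen with earlier results of these data known, and the X-box and Gli spellings after matches were seen. Values of every library are printed for Rpgrip1l, Gli1, Ptch1, Smo and each listed gene called or without overlap, with B9d1 and Bbs7 added after their values were seen; others are given by range, with up to 4 called genes per other list. Ccdc39 is named as a marker. A few genes covered by this rule are not reported here. Plots used matplotlib 3.10.9 (Python 3.11.15).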

Additional observations from a re-analysis of the deposited data

Results flagged for a closer look

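In groups of 4, a library was marked where its gap to the nearest other library as a share of the group's range was over Dixon's 95% critical value; chance marks about 1 in 20 groups, and 4 of 86 were marked. Gli2 in Fto siRNA replicate 4 had 10.4 FPKM, below 10.82 to 10.86 FPKM in the other 3. Gli3 in control siRNA replicate 4 had 9.05 FPKM, below 9.23 to 9.24 FPKM in the other 3. Ift27 in Fto siRNA replicate 2 had 28.1 FPKM, below 31.9 to 32.6 FPKM in the other 3. Cep290 in Fto siRNA replicate 2 had 3.13 FPKM, above 2.71 to 2.77 FPKM in the other 3.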

How the results depend on the processing

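Fto, the rise of Gli2 and the falls of Ift80, Ift81, Ift52 and Bbs2 kept direction and call under all 15 alternatives. The number of the 42 genes that fell was 6 to 8 under the 7 settings that kept every library and 4 to 10 when 1 library was left out. Mks1 was not tested with a filter of 5 FPKM. Among genes that did not pass, Bbs4 was at 0.0165 with median-ratio scaling and 0.0327 with quantile normalization, and Ift27 at 0.00801 and 0.00466. Leaving out 1 library moved the log2 fold change of Bbs4 over -0.0382 to 0.0225, Ift27 over -0.0497 to 0.0352, Bbs1 over -0.0202 to 0.0381, Ptch1 over -0.0617 to 0.0452 and Tmem67 over -0.0297 to 0.0508, each on both sides of 0; the cause was not tested. Calls gained when 1 library was left out were those of B9d1, Ift140, Ift172 and Bbs12. Same-numbered libraries of the groups did not deviate together, with correlations of 0.07, -0.04, -0.19 and -0.09, so the numbers were not taken as pairs; with the replicate block 8 of the 42 genes fell, with Arl6 added (adjusted p = 0.049 against 0.058 to 0.16 under the other alternatives), and 1 rose (1133 and 628 of all genes, Fto at -2.15). Of the 42 genes Gli1 had the fewest fragments, 46 to 89 a library, and genes with a mean below 1 FPKM were not tested.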
